A study of Mus musculus with 6 samples.

Results

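Genes that modify and process procollagen were compared between vascular smooth muscle cells labelled wild type and labelled NONO knockout. The group held 10 genes taken by symbol from a list of prolyl hydroxylases (P4ha1, P4ha2, P4ha3), lysyl hydroxylases (Plod1, Plod2, Plod3), procollagen C-proteinases (Bmp1, Tll1) and their enhancers (Pcolce, Pcolce2). All 10 were among the 56393 genes of the deposited table, and all 10 passed the filter on low counts that 18732 genes passed. In the table's Ensembl identifiers, P4ha1 is ENSMUSG00000019916 on chromosome 10, P4ha2 is ENSMUSG00000018906 on chromosome 11, P4ha3 is ENSMUSG00000051048 on chromosome 7, Plod1 is ENSMUSG00000019055 on chromosome 4, Plod2 is ENSMUSG00000032374 on chromosome 9. Likewise, Plod3 is ENSMUSG00000004846 on chromosome 5, Bmp1 is ENSMUSG00000022098 on chromosome 14, Tll1 is ENSMUSG00000053626 on chromosome 8, Pcolce is ENSMUSG00000029718 on chromosome 5 and Pcolce2 is ENSMUSG00000015354 on chromosome 9. The samples were 3 libraries labelled wild type (WT) and 3 labelled NONO knockout (KO), all from mouse vascular smooth muscle cells, which give the vessel wall its contraction. The protocol calls the cells primary, while the labels list them as a cell line. Both genotypes were grown in medium with serum and received no further treatment. The labels do not say how the gene was knocked out, whether the KO cells were 1 clone, or whether replicates were separate cultures or animals, so a p-value here speaks of the spread among these libraries alone, which may be technical. The series is about NONO, vascular calcification and transcription of Bmp2, and the comparison asks which transcripts differ between the labelled genotypes.

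Procollagen chains are modified in the endoplasmic reticulum before they fold. Prolyl 4-hydroxylase, built from an alpha subunit of the P4ha genes and the protein disulfide isomerase P4hb, makes the hydroxyproline that keeps the triple helix stable. Lysyl hydroxylases of the Plod genes prepare lysines for sugar attachment and for crosslinks between molecules. Both kinds of enzyme need oxygen, iron, 2-oxoglutarate and ascorbate. After export, C-proteinases of the BMP1/tolloid family cut off the C-terminal propeptide, which lets fibrils form, and the procollagen C-endopeptidase enhancers Pcolce and Pcolce2 speed that cut. Fibrillar collagen is a main load-bearing part of the artery wall.

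Library totals lay between 56529170 and 61670083 deposited counts. Nono was at 515 ± 11 CPM (counts scaled to library size with TMM, the trimmed mean of M-values; SD, n = 3) in WT and at 53.95 ± 2.55 CPM in KO. Some Nono transcript thus remained in KO, and these data hold no NONO protein level. Over all genes the genotypes differed widely: 69.3% of the 18732 tested genes had an adjusted p under 0.05, and 35.1% were higher in KO while 34.2% were lower (edgeR quasi-likelihood test, Benjamini-Hochberg adjustment). Against that background, 7 of the 10 members were higher in KO, 2 were lower and Plod3 did not pass. The members' median log2 fold change was 1.27, against 0.03 over all tested genes. Of the members, 6 were called and at least 2-fold higher in KO, as were 21.6% of tested genes. In 75.5% of tested genes the values of WT and KO did not overlap, and the same held for 9 members. Tll1 passed the filter through the KO libraries alone and Pcolce2 through the WT libraries alone, so that each had to differ and their calls are no support. Without them, 6 of the other 8 members were higher in KO and Plod1 was lower. Other features separated the same libraries. The 4 Y-linked genes Eif2s3y, Kdm5d, Uty and Ddx3y summed to between 0 and 0.0795 CPM in WT and between 149.9 and 163.3 CPM in KO. Of 8 fibroblast markers, 7 were tested and 6 were higher in KO, with a summed level of 102 to 131.5 CPM in WT and 2311 to 2498 CPM in KO, and Tcf21 at 0 in all libraries. Dcn (26.5 CPM in WT, 1464 CPM in KO) and Pdgfra (57.8 and 813 CPM) made up most of the KO sum, and Pi16 did not pass. Of 8 smooth muscle markers 5 were higher and 2 lower, with a summed level of 67.5 to 76.5 CPM in WT and 244.7 to 249 CPM in KO. Tagln (0.859 CPM) and Cnn1 (0.0212 CPM) lay under 1 CPM in WT, Myh11 lay under 1 CPM in both groups, and Myocd was at 0 counts in KO. Of the other cell types, endothelial markers (4 of 8 tested, 1 higher, 3 lower) summed to at most 3.62 CPM in WT and 1.93 CPM in KO, with Cdh5 at 0 in KO. Leukocyte markers (3 of 8 tested, 2 higher, 1 lower) reached 10.5 and 6.80 CPM, with Ptprc at 0 throughout. Epithelial markers (4 of 8 tested, 2 higher, 2 lower) lay at 77.0 to 84.8 CPM in WT and 9.87 to 13.4 CPM in KO. In WT they summed to more than the smooth muscle markers. The 2 lower ones were Krt19 (59.3 CPM in WT, 8.39 CPM in KO) and Msln (20.1 and 0.22 CPM). The 2 higher ones, Cdh1 and Wt1, had KO means of 0.927 and 2.04 CPM, and Epcam was at 0 throughout. Cartilage and bone markers (5 of 8 tested, 3 higher, 2 lower) lay at 37.8 to 47.8 CPM and 114 to 119 CPM, with Acan and Ibsp at 0 in KO and Dmp1 at 0 in WT. Most of that sum was Sox9 alone (39.1 CPM in WT, 106 CPM in KO). No other gene of this list had a group mean above 5.33 CPM, that of Sp7 in KO. The part of these differences in the results below was not tested. The Y-linked genes split the libraries exactly as the genotype labels do. A difference between the cells other than NONO therefore cannot be told apart from genotype in any result below. Several of the markers passed the filter through 1 group alone, so their calls are no support. Among them were Lum, Dpt, Cnn1, Csf1r, Cdh1 and Wt1 through KO, and Myocd and Kdr through WT. In bulk samples, fewer cells of a type and less RNA per cell cannot be told apart.

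All 3 prolyl 4-hydroxylase alpha subunit genes were higher in KO. P4ha1 was at 127, 165 and 131 CPM in the WT libraries and at 375, 346 and 367 CPM in the KO libraries. WT replicate 2 was the highest of its group, and every KO library stood above it. The fold change was 2.58 (log2 1.36 ± 0.10 SE, edgeR adjusted p = 8.67e-06). P4ha2 was at 65.0, 75.5 and 66.8 CPM in WT and at 133, 138 and 128 CPM in KO, the smallest change of the alpha subunit genes at 1.93-fold (log2 0.94 ± 0.07 SE, edgeR adjusted p = 3.88e-06). P4ha3, the least abundant of them per length, was at 9.54, 13.6 and 10.2 CPM in WT and at 56.7, 52.6 and 54.9 CPM in KO. Its groups were well apart, with a 4.92-fold difference (log2 2.30 ± 0.14 SE, edgeR adjusted p = 1.23e-06). P4hb, the partner subunit that the 3 alpha subunits share, rose 2.27-fold, from 465 ± 21.7 to 1054 ± 20.9 CPM (edgeR adjusted p = 8.26e-08). Summed over the 3 genes, alpha subunit transcript stood at 47.8 ± 3.55 FPKM (the authors' fragment values scaled to gene length and depth) per 100 FPKM of P4hb in WT and at 52.3 ± 2.55 in KO (SD, n = 3 each). The libraries of the groups overlapped in this ratio (exact permutation test, two-sided, p = 0.2), where 3 libraries against 3 cannot give a p under 0.1.

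The 3 lysyl hydroxylase genes went 3 ways. Plod2, which hydroxylates lysines of the telopeptides at the ends of the collagen molecule, rose 2.27-fold. It was at 82.1, 90.7 and 82.9 CPM in WT and at 199, 193 and 188 CPM in KO (log2 difference 1.18 ± 0.06 SE, edgeR adjusted p = 2.76e-07). Plod1, which acts on lysines in the triple helix, was slightly lower in KO. Its WT libraries were at 80.4, 93.2 and 82.8 CPM and its KO libraries at 73.1, 70.3 and 72.5 CPM. The groups did not overlap, but stood close. The log2 fold change was -0.25 ± 0.07 SE (edgeR adjusted p = 0.01), and the call did not hold at an adjusted p threshold of 0.01. Plod3, which also carries glycosyltransferase activity that adds sugars to hydroxylysine, was at 126, 128 and 129 CPM in WT and at 133, 127 and 122 CPM in KO. The groups overlapped (log2 fold change 0.001 ± 0.05 SE, 95% interval -0.11 to 0.11, edgeR adjusted p = 0.987). With scaling by total counts in place of TMM, Plod3 was called lower (log2 fold change -0.13, edgeR adjusted p = 0.0407). Exons of Plod3 overlap those of the antisense gene Znhit1 (27.0 CPM in WT, 27.4 CPM in KO), and whether the counting used strand is unknown here.

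P4ha1, P4ha2, Plod1 and Plod2 are known hypoxia-inducible genes, and the hypoxia-inducible factor HIF is known to bind DNA at ACGTG or GCGTG. Both were searched on both strands in the 250 bases before the RefSeq start of each member, as a description of sequence only. RefSeq (GRCm38.p6) gave a window for 8 members and none for Plod2 and Bmp1, which both rose. At least 1 of the motifs was found in 5 of the 8, and in 38.6% of 32841 promoter windows of the same length. The windows of P4ha1 and P4ha2 are shown because their transcripts rose together, and that of Plod3 because its transcript did not pass the test while its window holds more matches than those of the others. The sequences run 5′ to 3′ on the strand of the gene, and capitals mark the matches, which read CACGT or CACGC where the motif lies on the opposite strand.
P4ha1: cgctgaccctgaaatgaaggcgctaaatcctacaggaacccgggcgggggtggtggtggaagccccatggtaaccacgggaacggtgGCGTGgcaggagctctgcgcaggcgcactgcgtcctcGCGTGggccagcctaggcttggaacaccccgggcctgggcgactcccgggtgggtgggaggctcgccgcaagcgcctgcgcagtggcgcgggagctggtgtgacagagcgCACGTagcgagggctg
P4ha2: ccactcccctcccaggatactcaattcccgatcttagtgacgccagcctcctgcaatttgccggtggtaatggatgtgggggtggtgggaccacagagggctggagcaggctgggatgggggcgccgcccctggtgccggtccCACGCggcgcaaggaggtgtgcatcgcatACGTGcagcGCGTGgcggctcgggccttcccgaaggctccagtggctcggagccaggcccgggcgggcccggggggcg
Plod3: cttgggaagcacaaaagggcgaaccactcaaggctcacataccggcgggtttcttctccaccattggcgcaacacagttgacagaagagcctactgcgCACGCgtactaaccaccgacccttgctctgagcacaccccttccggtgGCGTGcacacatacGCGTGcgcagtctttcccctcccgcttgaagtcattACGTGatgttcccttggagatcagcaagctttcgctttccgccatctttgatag
They lie at chr10:59323046-59323295, chr11:54100674-54100923 and chr5:136986769-136987018, all on the plus strand. P4ha1 and P4ha2 each hold 1 ACGTG and 2 GCGTG, and Plod3 holds 1 ACGTG and 3 GCGTG. P4ha3, which rose most among the alpha subunits, holds neither, and Plod1, which was lower in KO, holds 1 GCGTG. Matches thus occur in windows of genes that rose, fell and did not pass.

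Both C-proteinase genes were higher in KO, from very different levels. Bmp1, which despite its name is a metalloproteinase and not a BMP ligand, was at 115, 129 and 116 CPM in WT. In KO it was at 522.5, 449 and 453.5 CPM, with replicate 1 above the other two. The fold change was 3.96 (log2 1.98 ± 0.07 SE, edgeR adjusted p = 8.57e-08). Tll1, tolloid-like 1, was nearly silent in WT. It had 5 counts in WT replicate 1 and 0 in the other WT libraries, and KO libraries had 175, 144 and 194 counts (2.96 ± 0.34 CPM). Low counts in the deposited table peak at 4, 8 and 12: the value 4 was held by 931 to 1048 genes per library, 3 by 511 to 554 and 6 by 303 to 353. How this arose was not tested. If 4 counts are taken as 1 step, an assumption, Tll1 had 1 step in WT against 128 in KO, a ratio of 138 with an exact 95% counting interval of 24.3 to 5490. Without WT replicate 1, Tll1 was at least 30.4-fold higher in KO, taking 12 counts over both remaining WT libraries as the floor. Intervals and floors cover counting error only, since reads without molecular identifiers are not independent molecules.

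The C-proteinase enhancers moved in opposite directions. Pcolce, the abundant one, was at 232, 216 and 234 CPM in WT and at 615, 618 and 617 CPM in KO. The KO libraries were nearly equal and the groups far apart, with a 2.71-fold increase (log2 1.44 ± 0.04 SE, edgeR adjusted p = 2.80e-08). Pcolce2 was at 52.6, 36.1 and 47.3 CPM in WT, from 3319, 2166 and 2976 counts. In KO it had 0 counts in every library. With KO set to 12 counts summed over its libraries (0.0695 CPM), it was at least 652-fold lower. Exons of Pcolce overlap Fbxo24 on the same strand (1.35 CPM in WT, 2.28 CPM in KO) and the antisense gene Gm36266 (0.554 and 2.44 CPM). Both had means under 3 CPM in either group. In base composition the enhancer promoters stood apart from those of the other members with a window. The observed over expected CpG ratio of the same 250-base window was 0.238 in Pcolce and 0.427 in Pcolce2. It was 0.694 to 0.846 in the P4ha genes, 0.675 in Plod1, 0.909 in Plod3 and 1.01 in Tll1. The median of all windows was 0.374.

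**Figure D1:**
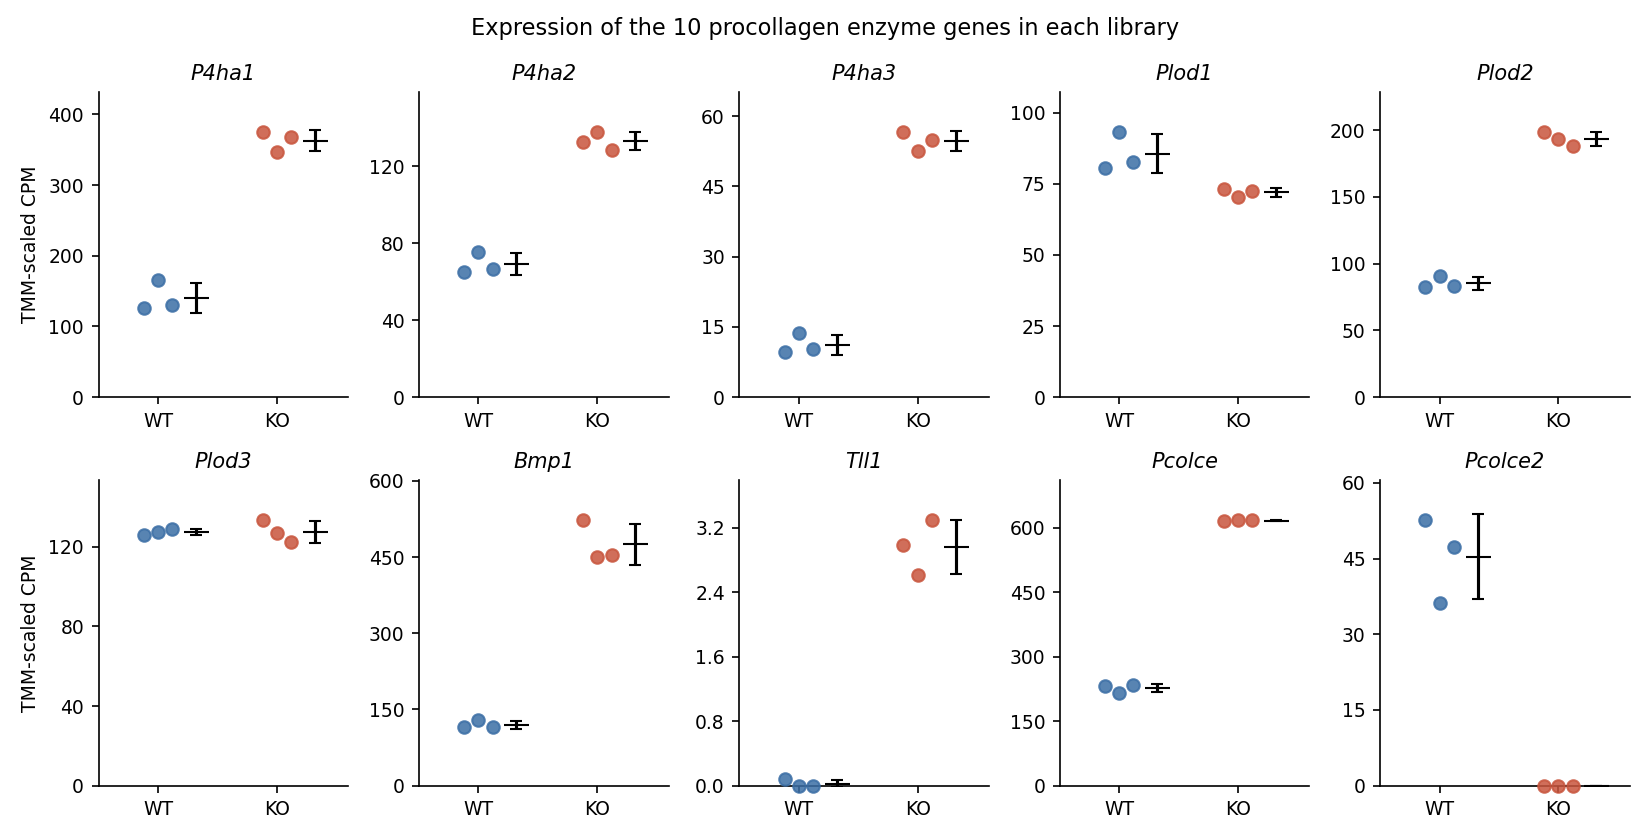
TMM-scaled CPM (vertical axes, each from 0) of the 10 members in the 3 WT (blue) and 3 KO (red) libraries, replicates 1 to 3 from left to right, with mean and SD in black. Plod3 is the 1 gene whose groups overlap, Pcolce2 is at 0 in all KO libraries, and WT replicate 2 is the highest WT library for P4ha1, P4ha2, P4ha3, Plod1, Plod2 and Bmp1.

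The balance within families was described per transcript length, with the deposited FPKM. In WT, Pcolce had the highest level of the members (139 ± 4.62 FPKM), followed by Plod3 (37.5 ± 1.06), P4ha1 (34.0 ± 6.21), P4ha2 (32.6 ± 2.85), Bmp1 (27.1 ± 1.93), Plod1 (24.6 ± 2.13) and Plod2 (22.2 ± 1.98). From Plod3 down to Plod2, neighbours in this order differed by less than the sum of their SDs, except P4ha2 and Bmp1. Pcolce2 (9.52 ± 1.66 FPKM) and P4ha3 (4.99 ± 0.87 FPKM) were lower. In KO the order below Pcolce (358 ± 34.8 FPKM) changed to Bmp1 (89.2 ± 9.12) and P4ha1 (80.9 ± 4.46), which differed by less than the sum of their SDs, then P4ha2 (56.7 ± 2.62), Plod2 (50.3 ± 1.87), Plod3 (35.4 ± 0.76), P4ha3 (24.4 ± 2.43) and Plod1 (19.5 ± 0.49). By FPKM, Plod3 stood in the second place in WT and the sixth in KO, and Bmp1 in the fifth and the second. The order depends on the measure: by counts per kilobase of exon P4ha1 ranked 2 in both groups, Plod3 ranked 3 in WT and 5 in KO, and Bmp1 ranked 5 and 3.

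Among lysyl hydroxylases, Plod2 made up 26.3% ± 0.84 of the summed FPKM in WT and 47.9% ± 0.58 in KO (SD, n = 3 each). The share of Plod1 went from 29.1% to 18.5% and that of Plod3 from 44.6% to 33.6%. By FPKM, Plod2 was the smallest of the 3 shares in every WT library and the largest in every KO library, while by counts per kilobase of exon Plod1 was the smallest in WT (22.3%, against 27.9% for Plod2). Among the alpha subunits the share of P4ha3 was 6.95% ± 0.56 in WT and 15.1% ± 1.16 in KO, while that of P4ha2 was 45.8% ± 2.22 and 35.0% ± 1.93. P4ha1 had a share of 47.3% ± 2.02 in WT and 49.9% ± 0.81 in KO, with overlapping groups (exact permutation test, two-sided, p = 0.2). For the shares of P4ha2, P4ha3, Plod1, Plod2 and Plod3 the groups did not overlap and the exact two-sided permutation p was 0.1, the smallest possible. Pcolce2 was 6.43% ± 1.21 of enhancer transcript in WT and 0% in KO, and by counts per kilobase of exon its WT share was 14.1%. Bmp1 was over 99% of C-proteinase transcript in each of the 6 libraries. The shares of P4ha1 and P4ha2 also differed in size between the measures, and the cause was not tested: by counts per kilobase of all annotated exons, P4ha1 was 70.0% of the alpha subunits in WT and 69.5% in KO, and P4ha2 was 22.8% and 16.8%. The direction for P4ha2, P4ha3 and Plod2 was the same in both measures.

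**Figure D2:**
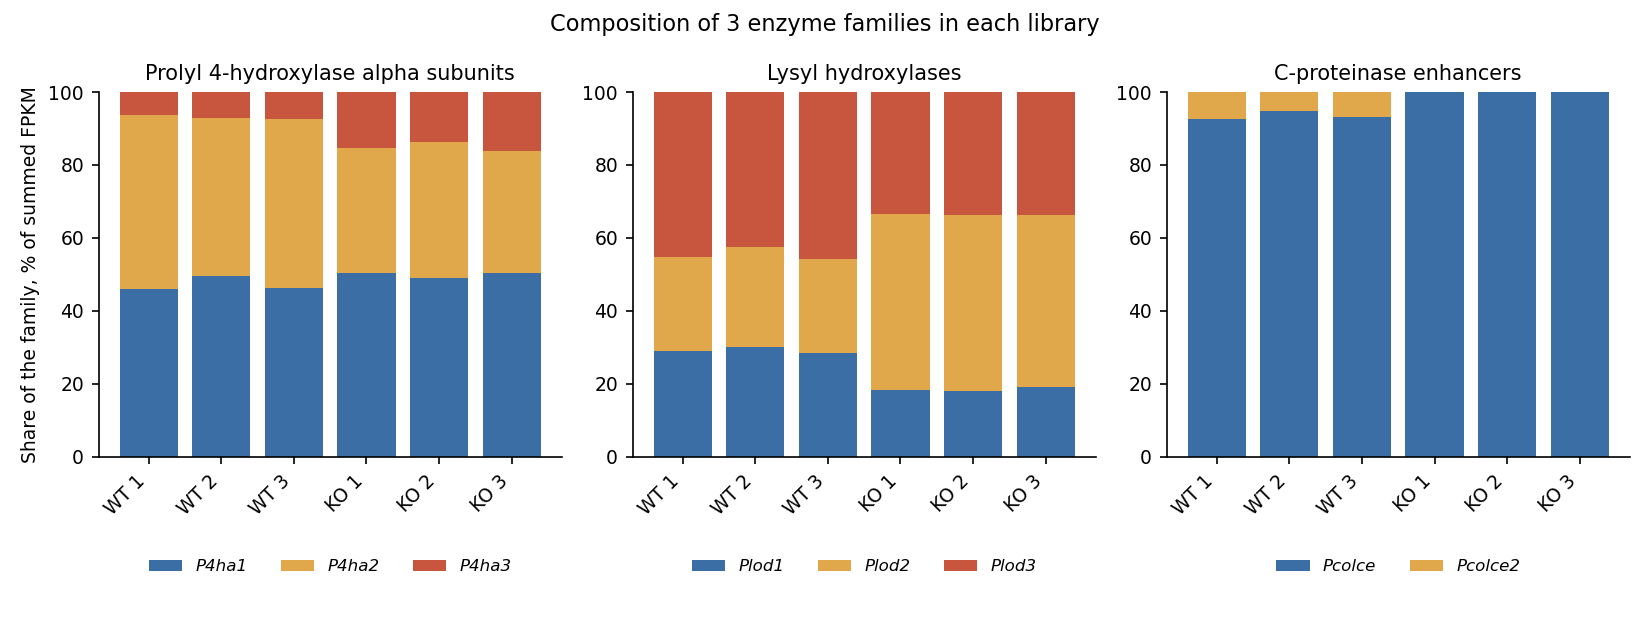
Share of each gene in its family's summed FPKM (vertical axis, percent) in each of the 6 libraries, for the prolyl 4-hydroxylase alpha subunits, the lysyl hydroxylases and the C-proteinase enhancers. Plod2 takes 25.7% to 27.3% in WT and 47.2% to 48.2% in KO, P4ha3 takes 6.34% to 7.45% and 13.8% to 16.1%, and Pcolce2 is absent from the KO bars.

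Other genes of procollagen handling were read from 3 lists, of which 27 of 31 genes were tested, 19 were higher in KO, 3 were lower and 5 did not pass. Their median log2 fold change was 0.78. Of 12 tested enzymes and chaperones of the endoplasmic reticulum, 9 rose and 2 fell. The prolyl 3-hydroxylase complex, which modifies single prolines of collagen chains, is made of P3h1, Crtap and the cyclophilin Ppib. P3h1 rose from 31.9 ± 5.56 to 82.5 ± 8.81 CPM, Crtap 1.59-fold and Ppib 1.74-fold (edgeR adjusted p = 5.15e-05, 2.44e-05 and 2.60e-06). The related P3h3 rose 10.3-fold, from 10.6 to 109 CPM, and P3h4, a non-catalytic relative, 1.67-fold. P3h2, the prolyl 3-hydroxylase best known from basement membrane collagen, fell instead. It was at 20.3, 19.6 and 21.8 CPM in WT and at 1.93, 0.291 and 1.70 CPM in KO, a 15.6-fold difference (edgeR adjusted p = 0.00132). The isomerases Fkbp14 and Fkbp10 rose 4.69-fold and 1.43-fold, and Colgalt1, which attaches galactose to hydroxylysine, rose 1.65-fold. Tmem38b, an ion channel of the endoplasmic reticulum membrane, fell 2.13-fold. Serpinh1, the collagen chaperone HSP47, was at 403, 684 and 695 CPM in WT and at 355, 393.5 and 597 CPM in KO. Its libraries spread widely, the groups overlapped, and it did not pass (edgeR adjusted p = 0.29). Colgalt2 was at 0 counts in all libraries.

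Of 9 genes of export from the endoplasmic reticulum, 4 rose, 1 fell and 4 did not pass. Those that rose were Sec23a (3.17-fold), Sec24d (1.78-fold) and Sec31a (1.37-fold), coat proteins of the vesicles that leave the endoplasmic reticulum, and Creb3l1 (2.52-fold), a transcription factor of secretory and collagen genes. Klhl12, an adaptor for coat ubiquitination, fell 1.18-fold (edgeR adjusted p = 0.0331), a call that was lost without WT replicate 1, WT replicate 3, KO replicate 2 or KO replicate 3. Mia3, also called TANGO1, a receptor that loads procollagen, stood at 214 ± 16.4 CPM (WT) and 193 ± 13 CPM (KO) and did not pass (edgeR adjusted p = 0.0958). With scaling by total counts Mia3, Mia2 and Sec13 were called lower as well, 6 genes of the 3 lists in place of 3. Sar1a, the small GTPase that starts coat assembly, was far higher in replicate 3 of each genotype (177 CPM against 62.03 and 51.9 in WT, 287 against 94.8 and 118.5 in KO) and did not pass.

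Of 9 listed genes of extracellular processing, 6 were tested and all 6 rose. Procollagen N-proteinases remove the N-terminal propeptide. Adamts2 rose 11.4-fold, from 28.5 ± 1.59 to 325 ± 17.0 CPM (edgeR adjusted p = 2.96e-09), and Adamts14 6.50-fold, from 5.15 to 33.5 CPM. Adamts3 had no counts in any WT library and 15.7 ± 1.39 CPM in KO, which is at least 243-fold higher when WT is set to the 12-count floor; it too passed the filter through KO alone. Furin, the convertase that removes the propeptide of BMP1, rose 1.70-fold. Fn1 and Postn, matrix proteins that bind BMP1, rose 2.34-fold and 175-fold. Tll2, Mep1a and Mep1b, further proteinases able to cut procollagen, had 0 to 8 counts in any library and were not tested.

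**Figure D3:**
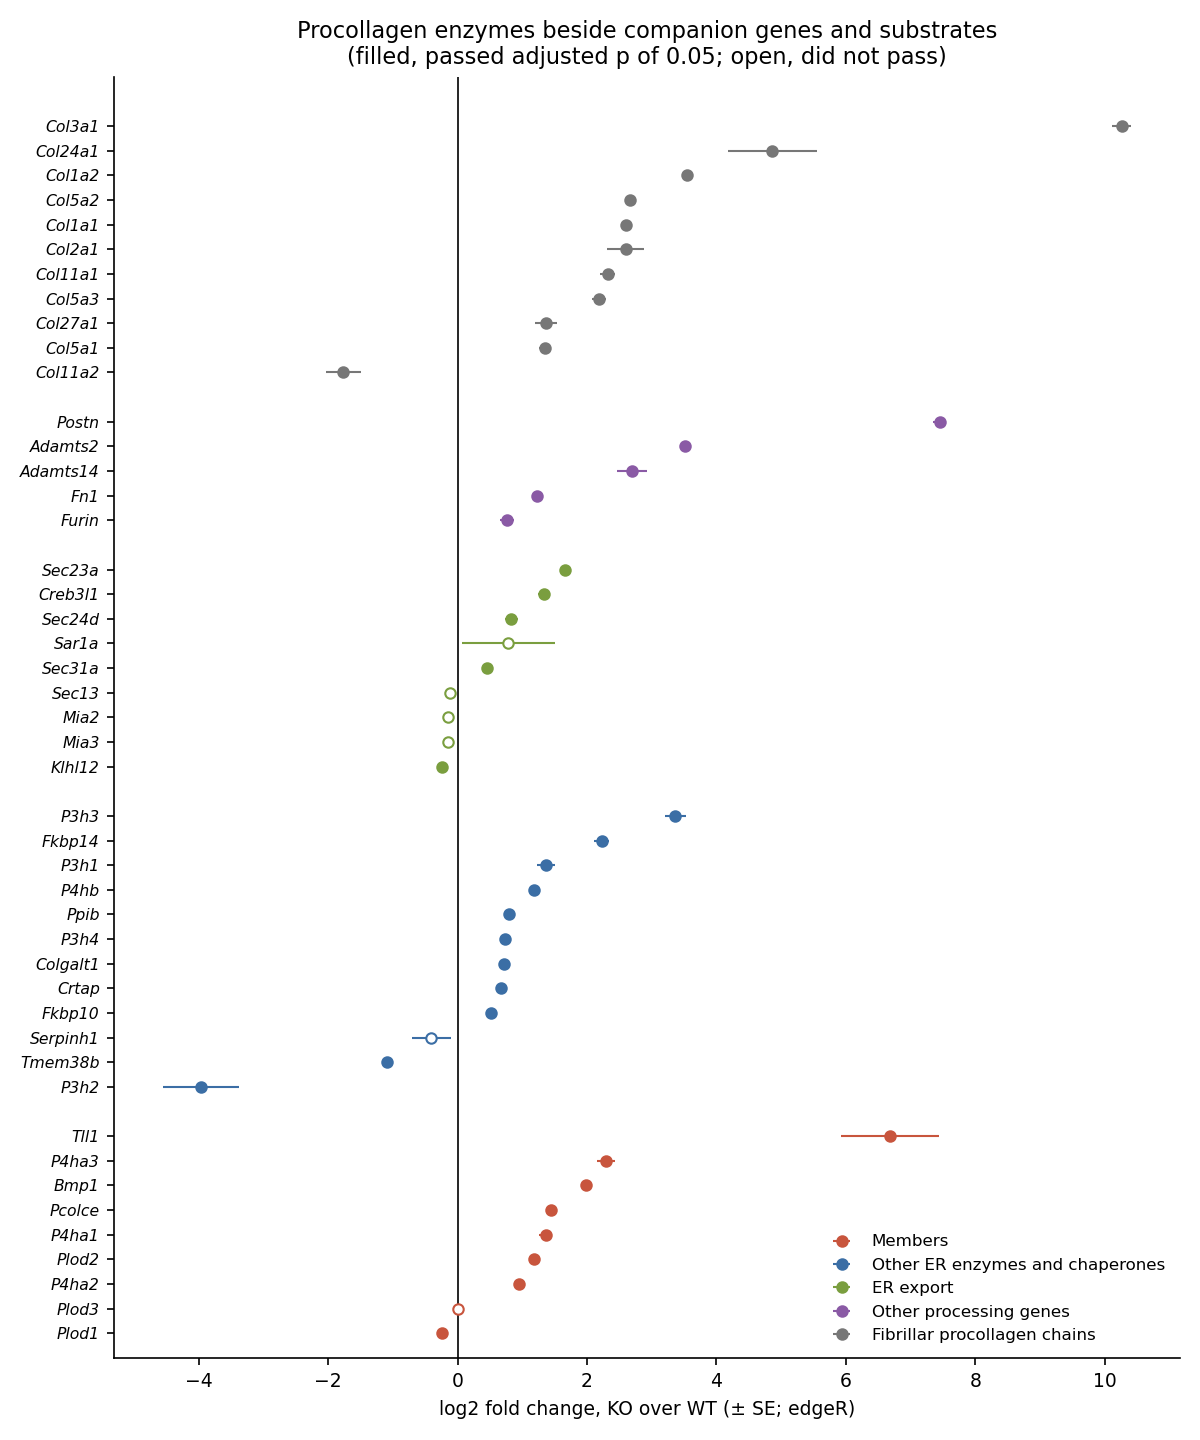
Fitted log2 fold change of KO over WT (horizontal axis, edgeR, bars are SE, n = 3 per group) for the members and 4 groups of related genes, filled where the adjusted p passed 0.05. Pcolce2 and Adamts3 are left out because 1 of their groups was at 0 counts. Most members and companions lie to the right of 0, Col3a1 lies at 10.26, and P3h2, Col11a2, Tmem38b, Plod1 and Klhl12 are the called genes to the left of 0.

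Fibrillar procollagen chains are among the substrates of these enzymes. Chains of other collagens were not counted in the sums and ratios below. Of 11 chain genes 10 rose and Col11a2 fell, the median log2 fold change being 2.60, and 9 of the 11 were at 1 CPM or more in WT. Col24a1, at 0, 6 and 6 counts in WT and 126, 110 and 100 in KO, passed the filter through KO alone. Its call is therefore no support. Col1a1 and Col1a2, which build type I collagen, rose 6.07-fold and 11.7-fold. Col3a1, the chain of type III collagen, rose from 3.03 ± 0.55 to 3712 ± 213 CPM. Summed FPKM of the 11 chains was 9.13-fold higher in KO, while the summed FPKM of the 10 members was 2.16-fold higher. Member transcript per 100 FPKM of fibrillar chain was therefore 119, 116 and 115 in the WT libraries and 28.6, 25.2 and 29.0 in the KO libraries. Every KO library was below every WT library, a 4.23-fold lower ratio (exact permutation test, two-sided, p = 0.1, the smallest possible). By family the ratio was 7.32-fold lower for lysyl hydroxylases, 4.02-fold for alpha subunits, 3.79-fold for enhancers and 2.76-fold for C-proteinases. With counts per kilobase of exon these values were 6.455, 3.26, 3.67 and 2.14, so alpha subunits and enhancers changed places. The N-proteinases Adamts2, Adamts3 and Adamts14 together were at 1.79 ± 0.16 FPKM per 100 FPKM of chain in WT and 1.91 ± 0.07 in KO, with overlapping groups (exact permutation test, two-sided, p = 0.3). By counts per kilobase of exon that last ratio was 1.84 in WT and 2.36 in KO, without overlap. N-proteinase transcript per 100 FPKM of C-proteinase transcript was 18.7 ± 1.87 in WT and 55.5 ± 3.03 in KO, and by counts per kilobase of exon 29.8 and 82.0. Of 11 tested other substrates of BMP1 and the tolloids 9 rose, among them Lox, which BMP1 activates (280 ± 38.8 to 4257 ± 185 CPM), and the proteoglycans Bgn (6.46-fold) and Dcn (55.2-fold). Chrd, the BMP antagonist chordin that BMP1 destroys, was 1.37-fold lower (edgeR adjusted p = 0.0388).

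**Figure D4:**
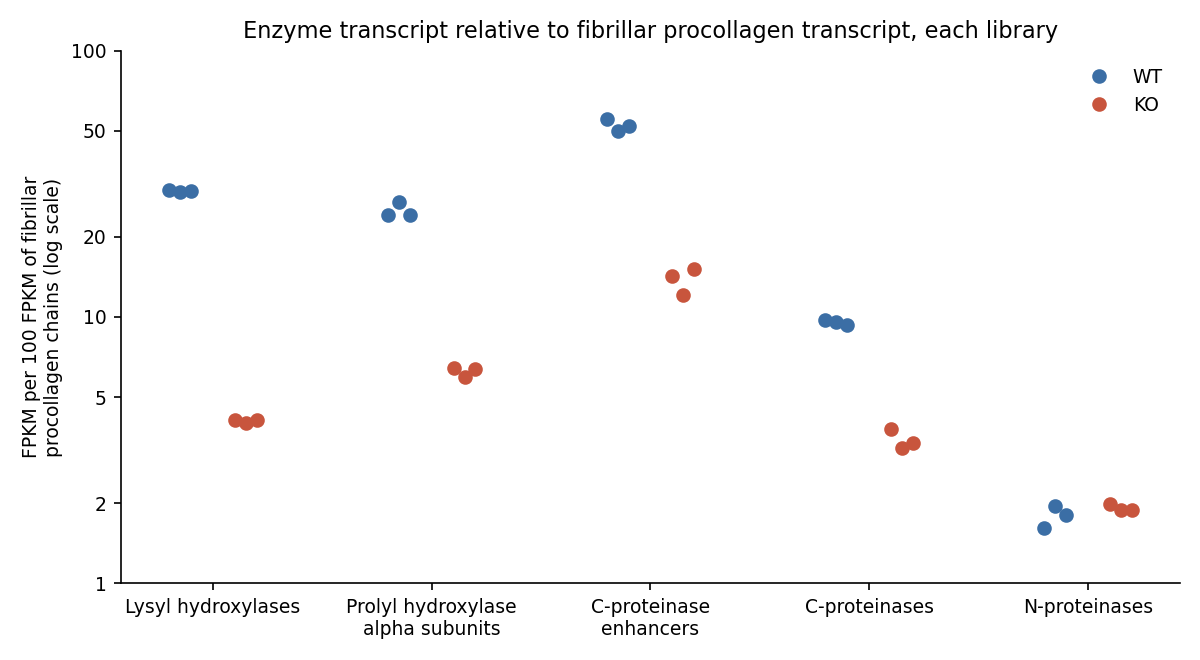
Summed FPKM of each enzyme family per 100 FPKM of the 11 fibrillar procollagen chains (vertical axis, log scale) in each WT (blue) and KO (red) library. Lysyl hydroxylases go from 29.4 to 30.1 in WT to 3.99 to 4.10 in KO, while the N-proteinases overlap between the groups.

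Other genes of oxygen sensing and of the response to hypoxia were set beside the members. All 7 listed genes of oxygen sensing and ascorbate transport passed, 4 higher and 3 lower. The oxygen-sensing prolyl hydroxylases Egln1, Egln2 and Egln3 rose 1.76-fold, 2.87-fold and 19.2-fold, while P4htm, a membrane-bound relative, fell 5.01-fold. Hif1an, the asparaginyl hydroxylase of HIF, fell 1.81-fold. Slc23a2, a transporter of the cofactor ascorbate, fell from 339 ± 13.4 to 70.7 ± 3.49 CPM, 4.80-fold (edgeR adjusted p = 1.06e-08), and the less abundant transporter Slc23a1 rose from 1.31 to 3.12 CPM. Of 15 hypoxia-inducible genes 6 rose, 5 fell and 4 did not pass, with a median log2 fold change of 0.19. Over all tested genes 35.1% were higher and 34.2% lower. Bnip3, of mitochondrial autophagy, rose from 30.9 to 159 CPM and Kdm3a, a histone demethylase, 3.25-fold. Adm, adrenomedullin, had no counts in WT and reached 34.9 CPM in KO. It passed the filter through KO alone, so its call is no support. Ndrg1 fell 2.48-fold, Hk2, a hexokinase, 1.43-fold and Vegfa 1.18-fold.

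Within WT, the order of the libraries was uneven in these genes. Replicate 2 was the highest WT library for 6 of the 9 members at 1 CPM or more in WT and the lowest for Pcolce and Pcolce2. Over all 13396 tested genes at that level it was the highest for 36.4% and the lowest for 39.0%. Replicate 1 was the lowest WT library for 7 of the 9 members, all 6 hydroxylases among them, and for 8 of 9 fibrillar chains at that level, against 32.8% of all such genes. Of 14 hypoxia-inducible genes at 1 CPM or more in WT replicate 2 was the highest for 10, Bnip3 (38.9 CPM against 27.7 and 26.1) and Pdk1 (64.6 CPM against 51.4 and 50.3) among them. Without WT replicate 2 the log2 fold change was 1.5 for P4ha1, 2.47 for P4ha3 and -0.18 for Plod1, and the calls of all 10 members were the same.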

How the data were processed

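RNA sequencing covered 3 WT and 3 KO libraries, grouped and numbered by the sample titles. Per the file headers, the deposited table holds counts and FPKM for each Ensembl gene, both made by the authors. The submitters' processing notes name CASAVA 1.8, HISAT2, SAMtools 1.3.1, edgeR and the build GRCm39, with no roles. The counter, its strand setting and its annotation: not given in the sources used here. Low counts peak at 4, 8 and 12, and how that arose was not tested. As a precaution the floor for a gene at 0 was set at 12 counts, or 3 steps of 4, over a group. The deposited FPKM are not a plain rescaling of the counts and served for levels per length and for alternatives.

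Symbols came from GENCODE M21 by Ensembl ID (98.23% of 56393 genes). Exon lengths and promoter windows are of GRCm38. Counts were filtered with filterByExpr (18732 genes), scaled with TMM and tested KO against WT, without covariates, by edgeR 4.0.16 (R 4.3.3; quasi-likelihood, robust), with Benjamini-Hochberg adjustment at 0.05. Levels are TMM-scaled CPM with SD over 3 libraries. Simulated counts for the KO against WT comparison held 50 changed genes per fold, at a mean of 100 counts or more (17131 genes tested). The share of changed genes found was 52% for a 1.5-fold change, 84% for 2-fold, 92% for 4-fold and 96% for 8-fold. False calls numbered 13, or 7.43% of all calls. In the real data 69.3% of tested genes were called, a setting that the simulation does not cover. No libraries of a group were duplicates (chi-square over degrees of freedom from 6.71 to 10.5 on counts divided by 4), and each counted as 1 sample.

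Alternatives were DESeq2 1.42.0 (Wald test, and its size factors in edgeR), limma 3.58.1 (voom, and log2(FPKM + 0.1) or log2(FPKM + 1) from the deposited FPKM), other filters, total-count scaling, an adjusted p of 0.01, a block for the replicate number, and dropping each library in turn. Counts divided by 4 was added after the data had been seen. The members and lists were chosen with earlier results of these data known. The rule for named genes covered all members, any tested gene of the procollagen lists and the fibrillar chains, Nono, and up to 3 genes of each other list with the smallest adjusted p. Other genes of those lists named here (P4htm, Hif1an, Slc23a1, Egln1, Bnip3, Pdk1, Hk2, Vegfa, Chrd, Lox and single markers), and the genes overlapping Plod3 and Pcolce, were chosen after their values were seen.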

Additional observations from a re-analysis of the deposited data

How the results depend on the processing

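The count of 7 members higher in KO was the same under every alternative listed in the processing section and without each library in turn. It holds Tll1, and the count of members lower holds Pcolce2. Each of these passed the filter through 1 group alone, so their calls are no support. The count of members lower in KO was 2, or 1 at an adjusted p of 0.01, where Plod1 (log2 fold change -0.248) was no longer called, and 3 with scaling by total counts, where Plod3 was added. Plod3 changed sign with the size factors of DESeq2 and its Wald test (-0.00137 in both), without a low-count filter (-0.0132), with scaling by total counts (-0.129), from log2(FPKM + 0.1) and log2(FPKM + 1) (-0.0847 and -0.0826), without WT replicate 1 (-0.00314) and without KO replicate 1 (-0.033). It was called only with scaling by total counts, which moved the median log2 fold change of all tested genes from 0.031 to -0.0992. The other procollagen genes lower in KO numbered 3, or 6 both under total-count scaling and from FPKM at either pseudocount, and between 2 and 5 without 1 library, with 5 without WT replicate 2. By counts per kilobase of exon, the share of P4ha1 was 70.0% in WT and 69.46% in KO, that of P4ha3 13.74% in KO, that of Plod2 27.9% and that of Pcolce2 14.07% in WT, and the members per 100 of fibrillar chain 85.93 in WT and 22.34 in KO, and the cause was not tested. Leaving out a library gave 115.6 to 117.7 in WT and 26.93 to 28.8 in KO. The fitted change of Tll1 ranged from 0.639 to 10.46 over the alternatives and rests on 5 WT counts. With the replicate block, 7 members were higher and 2 lower, and 12233 genes passed in place of 12980. Of the other procollagen genes 20 were higher in place of 19, the added one being Sar1a (log2 fold change 0.83 ± 0.12 SE, edgeR adjusted p = 0.00236, against 0.383 without the block). Over all genes, same-numbered libraries did not deviate together (Pearson r -0.0237, 0.018 and -0.00904). A correlation over all genes cannot show whether single genes follow the replicate number. Sar1a and Serpinh1 were highest in replicate 3 of both groups. Whether the numbers pair the libraries is unknown.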
